A study of Mus musculus with 22 samples.

Results

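The genes described here are 10 readouts of FGF and ERK signalling in mouse embryonic stem cells: the ligand gene Fgf4, the immediate-early genes Egr1 and Fos, the ERK phosphatase genes Dusp6 and Dusp4, the Sprouty genes Spry2 and Spry4, the ETS factor genes Etv4 and Etv5, and Myc. They were taken by symbol from the 52535 gene symbols of each count table. The rule uses no measured value, but earlier results of these data were known when the list was made. All 10 were present, and all 10 had enough counts to be tested, also when any 1 genotype was left out of the filter. The RNA was taken from the mouse embryonic stem cell line E14, kept on gelatin with LIF, 1 µM PD0325901, which inhibits the kinase MEK, and 3 µM CHIR99021, which inhibits GSK3. LIF and both inhibitors were then withdrawn and 2 µM retinoic acid (RA) was given for 1 day in all groups. The 12 libraries fell into 4 genotypes of 3 libraries each, namely WT and the knockouts E1-KO, E2-KO and D-KO. The series concerns a pair of enhancers of the HoxB genes; E1-KO and E2-KO were read as lacking one each, and D-KO, which the labels do not spell out, was read as lacking both. No untreated or inhibitor-treated sample was analysed here, so each comparison is between genotypes at 1 day and none follows the release from the MEK inhibitor itself.

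In embryonic stem cells FGF4 is secreted by the cells and acts back on them through FGF receptors, Ras and the kinases RAF, MEK and ERK. ERK activity switches on immediate-early factors and ETS factors, together with phosphatases and Sprouty proteins that restrain the same pathway. This signal moves stem cells out of the naive state, which is why naive cells are kept in a MEK inhibitor, and it favours primitive endoderm over epiblast.

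Between 9101547 and 13007735 reads were counted to genes in each library. The 3 libraries of a genotype are named biological replicates, but whether they came from separate clones is not stated, so p-values reflect the spread among these 12 samples alone. The WT group was the least uniform. A chi-square comparison of paired WT libraries gave 38.9 to 77.9 a gene, against 2.21 to 3.99 within the KO genotypes, and WT replicates 1 and 3 stood apart from replicate 2 in their trend with GC content (Spearman correlation across genes of -0.56 and -0.43 against 0.14). Mitochondrial genes took 3.50% and 5.88% of the counts in WT replicates 1 and 3, 1.94% in replicate 2 and 1.36% to 2.69% in the KO libraries, and the labels name no batch for any library. For the 10 genes the median SD of log2 CPM (CPM, counts scaled to a common library size after TMM normalisation) was 0.31 in WT and 0.05 to 0.06 in the KO genotypes, beside 0.37 and 0.12 to 0.13 over all 16765 genes tested. Differences of the 10 genes from WT are therefore also given without WT replicates 1 and 3, a fit in which the single WT library is assumed to vary like the KO libraries. Hoxb1, the HoxB gene checked first because the deleted elements themselves are not counted, had 22.9 ± 7.50 CPM in WT (SD, n = 3) and means of 0.291, 0.838 and 0.528 CPM in E1-KO, E2-KO and D-KO. All 10 stem cell markers examined were detected, and their summed level was 3018 to 5239 CPM in WT and 7067 to 7418, 6648 to 7126 and 5730 to 5923 CPM in E1-KO, E2-KO and D-KO. The 12 primitive endoderm markers summed to 518 to 557, 219 to 232, 334 to 341 and 324 to 342 CPM. Trophectoderm markers summed to 95.6 to 102, 144 to 157, 147 to 163 and 84.0 to 85.5 CPM. In E1-KO and E2-KO this sum was higher through Krt8 (33.7 CPM in WT, 75.3 and 81.4 CPM there), Krt18 and Tfap2c. Eomes, Gata3 and Cdx2 of the same list had lower means there than in WT. Mesoderm, early neural and fibroblast markers summed to at most 38.7, 33.6 and 33.7 CPM in any library, with the fibroblast marker Lum at 0 in all 12. Eomes, at 30.3 CPM in WT, is in the mesoderm list too. In bulk RNA, fewer cells of a type and less RNA per cell cannot be told apart, and the part of these markers in the differences below was not tested.

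Some of the DNA through which these genes are known to be read is shown here, because later paragraphs return to it. Fgf4 is driven in stem cells by an enhancer in its 3' UTR, where SOX2 and OCT4 bind side by side. A search of the gene and the bases after it on both strands for TTTGTT, then 2 to 5 bases, then ATGCNAAT, gave 1 match. It lies at chr7:144864390-144864416 on the + strand of GRCm38 in the 3' UTR, 1457 bases after the last coding base, with the Sox part and the octamer in capitals and a spacer of 3 bases between them.
Fgf4 enhancer site: aactcTTTGTTtggATGCTAATgggat

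RefSeq (GRCm38.p6) gave a promoter window, 250 bases before the start site and 50 after, for 5 of the 10 genes, Fgf4, Fos, Dusp6, Spry2 and Etv5. Etv5 has windows at a pair of start sites, of which the one farther upstream is shown. Windows of the last 4 are shown because all E1-KO libraries lay apart from all E2-KO and D-KO libraries in these genes. Capitals mark every match, on either strand, to CCGGAA, a site bound by ETS factors and called the ETS core here. They also mark TGANTCA (AP-1 site), TGACGT (a half-site of the cAMP response element), the CArG box bound by SRF, and GGGCGG (the Sp1 box). Shorter sites such as GGAA were not searched. The Fos window is chr12:85473640-85473939 on the + strand, that of Dusp6 chr10:99262981-99263280 on the + strand, that of Spry2 chr14:105896770-105897069 on the - strand and that of Etv5 chr16:22439521-22439820 on the - strand.
Fos promoter: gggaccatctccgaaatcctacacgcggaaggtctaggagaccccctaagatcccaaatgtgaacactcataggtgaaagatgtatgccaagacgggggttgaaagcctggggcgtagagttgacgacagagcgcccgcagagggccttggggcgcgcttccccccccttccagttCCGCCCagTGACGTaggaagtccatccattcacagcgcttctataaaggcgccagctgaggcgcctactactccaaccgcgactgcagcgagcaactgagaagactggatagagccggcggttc
Dusp6 promoter: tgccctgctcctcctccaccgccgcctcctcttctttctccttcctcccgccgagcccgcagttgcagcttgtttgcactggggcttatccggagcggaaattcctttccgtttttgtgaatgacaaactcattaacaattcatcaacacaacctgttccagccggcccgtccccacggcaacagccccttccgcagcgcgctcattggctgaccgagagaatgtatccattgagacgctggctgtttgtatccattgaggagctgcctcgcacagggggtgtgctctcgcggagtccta
Spry2 promoter: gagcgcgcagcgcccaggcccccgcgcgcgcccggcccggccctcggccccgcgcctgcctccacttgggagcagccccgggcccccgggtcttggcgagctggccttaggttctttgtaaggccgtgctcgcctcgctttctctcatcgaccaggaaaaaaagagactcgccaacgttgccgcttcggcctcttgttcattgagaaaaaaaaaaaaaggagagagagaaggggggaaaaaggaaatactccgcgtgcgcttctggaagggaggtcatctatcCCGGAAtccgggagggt
Etv5 promoter: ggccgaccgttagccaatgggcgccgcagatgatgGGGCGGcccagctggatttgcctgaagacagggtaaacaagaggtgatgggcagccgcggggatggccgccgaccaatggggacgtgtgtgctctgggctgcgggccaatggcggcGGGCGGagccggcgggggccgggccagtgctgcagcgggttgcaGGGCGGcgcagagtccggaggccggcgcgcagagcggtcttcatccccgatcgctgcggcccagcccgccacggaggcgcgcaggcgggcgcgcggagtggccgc

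The Fos window held the response-element half-site with its first base at -66 and an Sp1 box at -74. In Spry2 the 1 ETS core began at +34, inside the transcribed part. The Etv5 window shown held 3 Sp1 boxes, at -215, -99 and -55, and its other window (chr16:22438319-22438618, - strand) none of the motifs. The Fgf4 window (chr7:144861136-144861435, + strand) held Sp1 boxes at -214 and -188, the Dusp6 window none of the motifs, and the matched motifs did not overlap one another. Of 32851 promoter windows of 300 bases, 14.9% held the ETS core, 7.81% the AP-1 site, 7.51% the half-site, 1.63% the CArG box and 35.7% the Sp1 box. A match is a run of letters and does not show binding.

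Per kilobase of exon the genes spanned a wide range of levels, with Etv5 highest in the KO genotypes and Dusp6 in WT. Mean CPM per kilobase over the genotypes was 68.9 to 107 for Etv5, 55.0 to 71.2 for Dusp6, 47.2 to 58.9 for Etv4, 47.8 to 55.2 for Fgf4 and 36.4 to 53.0 for Spry2. Myc stood at 22.8 to 42.7, Spry4 at 23.2 to 32.4 and Dusp4 at 6.58 to 8.57. The immediate-early genes were lowest, with 0.390 to 0.812 for Egr1 and 0.251 to 0.627 for Fos, so the ranges of neighbouring genes from Etv5 to Spry4 overlapped while those of Dusp4, Egr1 and Fos lay below all others.

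**Figure D1:**
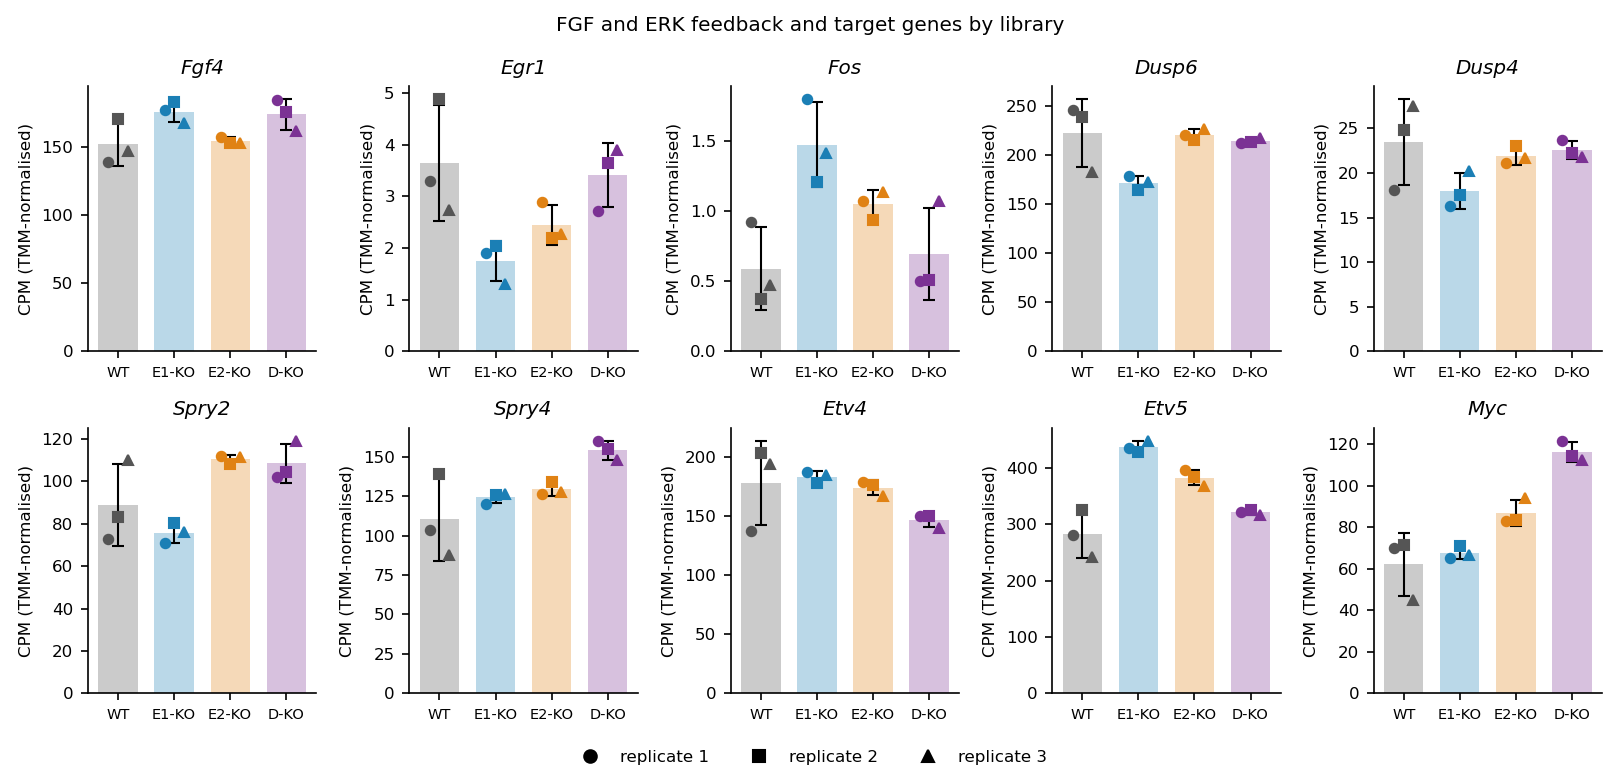
TMM-normalised CPM of each gene (vertical axis, from 0) in the 4 genotypes; bars are means, whiskers SDs over 3 libraries and symbols the single libraries. Myc was highest in D-KO (113 to 122 CPM), Etv5 in E1-KO (428 to 448 CPM), and the WT libraries were the most scattered for most genes.

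Fgf4 encodes the main FGF ligand of early embryonic cells (chromosome 7, + strand, 144847367 to 144865243 in GENCODE M21 on GRCm38). It had 139.5, 171 and 147 CPM in WT replicates 1 to 3, 177, 183 and 168 CPM in E1-KO, 158, 154 and 153 CPM in E2-KO, and 185, 176 and 162 CPM in D-KO. WT overlapped every KO genotype, and the E2-KO libraries lay below all E1-KO and all D-KO libraries. Against WT no difference passed in edgeR, with log2 fold changes (± SE) of 0.21 ± 0.10, 0.02 ± 0.10 and 0.19 ± 0.10 in E1-KO, E2-KO and D-KO and adjusted p = 0.134, 0.897 and 0.196. With WT replicates 1 and 3 left out, they were 0.05, -0.14 and 0.03, and without WT replicate 2 those in E1-KO and D-KO were called, at 0.30 and 0.29. Sox2 and Pou5f1, which encode the SOX2 and OCT4 that bind the enhancer site printed above and are also among the stem cell markers, had 143 ± 53.6 and 787 ± 364 CPM in WT (SD, n = 3). Sox2 rose to 335 ± 15.3, 321 ± 22.6 and 264 ± 2.38 CPM in E1-KO, E2-KO and D-KO (log2 fold changes 1.23, 1.17 and 0.88, adjusted p = 0.000396, 0.000624 and 0.00556). Pou5f1 rose to 1457 ± 23.4 and 1518 ± 95.2 CPM in E1-KO and E2-KO (0.89 and 0.95, adjusted p = 0.0124 and 0.00873) and had 1187 ± 33.0 CPM in D-KO (0.59, adjusted p = 0.0919). With replicate 2 as the only WT library, the log2 fold changes of Sox2 were 0.80, 0.72 and 0.44 and those of Pou5f1 0.36, 0.41 and 0.05, with all but the last called.

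Egr1 encodes a zinc finger factor that ERK induces within minutes through SRF and its partners (chromosome 18, + strand, 34859823 to 34864984). The level was 3.29, 4.89 and 2.73 CPM in WT, 1.90, 2.05 and 1.31 CPM in E1-KO, 2.89, 2.19 and 2.28 CPM in E2-KO, and 2.73, 3.64 and 3.90 CPM in D-KO, from 13 to 66 counts a library. Every E1-KO library lay below every library of the other genotypes. Egr1 fell in E1-KO against WT by 1.07 ± 0.31 on the log2 scale (2.1-fold lower, adjusted p = 0.0149), and its differences in E2-KO (-0.59 ± 0.30, adjusted p = 0.132) and D-KO (-0.11 ± 0.29, adjusted p = 0.817) did not pass. Set against WT replicate 2 alone, the 3 values were -1.47, -1.0 and -0.52, and E2-KO then passed as well, as it did with each library's trends with GC content and gene length removed (-0.92). The E1-KO call was lost without WT replicate 2 (-0.78) and without E1-KO replicate 3 (-0.90).

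Fos encodes the AP-1 subunit that pairs with JUN proteins (chromosome 12, + strand, 85473890 to 85477273), and it was the scarcest of the genes, with 4 to 19 counts a library. It had 0.926, 0.371 and 0.475 CPM in WT, 1.80, 1.21 and 1.41 CPM in E1-KO, 1.07, 0.939 and 1.14 CPM in E2-KO, and 0.505, 0.506 and 1.07 CPM in D-KO. E1-KO lay above every other library, and D-KO replicate 3 was as high as the E2-KO libraries while the other D-KO libraries lay in the range of WT. Fos rose in E1-KO against WT by 1.35 ± 0.47 on the log2 scale (2.55-fold, adjusted p = 0.0360). In E2-KO the value was 0.86 ± 0.49 (adjusted p = 0.178) and in D-KO 0.27 ± 0.51 (adjusted p = 0.744). The E1-KO call held in 4 of 12 fits that left out 1 library (log2 fold change 1.05 to 1.84, adjusted p = 0.0182 to 0.129), being lost without WT replicate 2 or 3 or without any 1 of the E1-KO or E2-KO libraries. Without WT replicates 1 and 3 the values were 2.00 in E1-KO, called, and 1.51 and 0.91 in E2-KO and D-KO, not called. With trends with GC content and length removed the E1-KO call was lost (1.22). Egr1 and Fos, both immediate-early genes, thus differed from WT in opposite directions in E1-KO.

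Dusp6 encodes a cytoplasmic phosphatase specific for ERK and one of the most direct readouts of FGF activity (chromosome 10, + strand, 99263231 to 99267489). The level was 247, 239 and 183 CPM in WT, 179, 165 and 173 CPM in E1-KO, 221, 216 and 227 CPM in E2-KO, and 213, 213 and 218 CPM in D-KO. E1-KO lay below every library of the other genotypes, although WT replicate 3 was within a few CPM of it, and E2-KO and D-KO overlapped. Dusp6 fell in E1-KO against WT by 0.37 ± 0.11 (1.30-fold lower, adjusted p = 0.0206) and did not pass in E2-KO (-0.01 ± 0.11, adjusted p = 0.947) or D-KO (-0.05 ± 0.11, adjusted p = 0.768). With WT replicates 1 and 3 left out, the values were -0.46, -0.11 and -0.16, with D-KO then called too. The E1-KO call was lost without WT replicate 1 (-0.29) and without any 1 of the E1-KO libraries.

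Dusp4 encodes a nuclear phosphatase of the same family (chromosome 8, + strand, 34807297 to 34819894). It had 18.1, 24.8 and 27.6 CPM in WT, 16.3, 17.5 and 20.3 CPM in E1-KO, 21.1, 23.1 and 21.6 CPM in E2-KO, and 23.7, 22.3 and 21.8 CPM in D-KO. E1-KO was lowest among the KO genotypes and overlapped WT, whose replicate 1 was as low as E1-KO. No difference from WT passed, with -0.38 ± 0.15 in E1-KO (adjusted p = 0.0697), -0.10 ± 0.15 in E2-KO (adjusted p = 0.650) and -0.05 ± 0.15 in D-KO (adjusted p = 0.831). With replicate 2 as the only WT library, the values were -0.45, -0.17 and -0.13, and the first passed. With GC and length trends removed they were -0.73, -0.50 and -0.29, and E1-KO and E2-KO were called (adjusted p = 0.00238 and 0.0236).

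Spry2 encodes a Sprouty protein, an inhibitor that acts between the receptor and RAF and that receptor signalling induces (chromosome 14, - strand, 105891947 to 105896819). The level was 72.6, 83.4 and 110.3 CPM in WT, 71.0, 80.5 and 76.1 CPM in E1-KO, 112, 108 and 111 CPM in E2-KO, and 102, 104 and 119 CPM in D-KO. All E1-KO libraries lay below all E2-KO and D-KO libraries, and WT spanned both levels. Against WT the log2 fold changes were -0.22 ± 0.14, 0.32 ± 0.13 and 0.29 ± 0.13 in E1-KO, E2-KO and D-KO, and none passed (adjusted p = 0.213, 0.0796 and 0.134). Set against WT replicate 2 alone, they were -0.12, 0.41 and 0.38, and the last pair passed. With GC and length trends removed E2-KO passed too (0.44).

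Spry4, a second Sprouty gene (chromosome 18, - strand, 38586247 to 38601415), had 104, 139 and 87.8 CPM in WT, 120.2, 126 and 126 CPM in E1-KO, 126, 134 and 128 CPM in E2-KO, and 159.7, 155 and 148 CPM in D-KO. D-KO lay above every other library, and WT replicate 2 lay above all E1-KO and E2-KO libraries. Spry4 rose in D-KO against WT by 0.48 ± 0.14 (1.40-fold, adjusted p = 0.0201), while 0.17 ± 0.14 in E1-KO and 0.23 ± 0.14 in E2-KO did not pass (adjusted p = 0.350 and 0.205). Without WT replicates 1 and 3 the D-KO value was 0.15 and the call was lost, and the other values turned to -0.15 and -0.11. The D-KO call was also lost without WT replicate 1 (0.43), D-KO replicate 1 or D-KO replicate 2.

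Etv5 encodes an ETS factor of the PEA3 group, which FGF signalling induces and which itself carries out part of the response (chromosome 16, - strand, 22381309 to 22439719). The level was 281, 326 and 241 CPM in WT, 436, 428 and 448 CPM in E1-KO, 395, 385 and 369 CPM in E2-KO, and 322, 325 and 316 CPM in D-KO. The genotypes formed 3 steps that did not overlap, E1-KO above E2-KO above D-KO, and WT overlapped D-KO and lay below the other KO genotypes. Etv5 rose in E1-KO by 0.63 ± 0.11 (1.55-fold, adjusted p = 0.000718) and in E2-KO by 0.44 ± 0.11 (1.35-fold, adjusted p = 0.00783), and had 0.18 ± 0.11 in D-KO (adjusted p = 0.250). With WT replicates 1 and 3 left out, the values were 0.44, 0.23 and -0.02, with the first pair still called. Both calls held in all 12 fits that left out 1 library, at 0.53 to 0.74 and 0.33 to 0.55.

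Etv4, its close relative (chromosome 11, - strand, 101769742 to 101785371), had 137, 203 and 194 CPM in WT, 187, 178 and 185 CPM in E1-KO, 179, 176 and 166 CPM in E2-KO, and 149.8, 149.6 and 139.9 CPM in D-KO. D-KO lay below all E1-KO and E2-KO libraries, and WT replicate 1 lay below D-KO. Against WT the values were 0.04 ± 0.13, -0.04 ± 0.13 and -0.28 ± 0.13 in E1-KO, E2-KO and D-KO, and none passed (adjusted p = 0.833, 0.850 and 0.128). With replicate 2 as the only WT library, they were -0.14, -0.22 and -0.47, and E2-KO and D-KO passed. Removing each library's trends with GC content and gene length gave -0.43, -0.58 and -0.61, all called. At 58.7% GC, Etv4 had the highest GC content of the 10 genes.

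Myc encodes a growth factor-responsive transcription factor that drives ribosome production and proliferation and is stabilised by ERK (chromosome 15, + strand, 61985391 to 61990374). The level was 70.2, 71.2 and 44.8 CPM in WT, 65.2, 71.1 and 66.4 CPM in E1-KO, 83.0, 83.4 and 93.8 CPM in E2-KO, and 122, 114 and 113 CPM in D-KO. D-KO lay above E2-KO and E2-KO above E1-KO without overlap, and WT and E1-KO overlapped. Myc rose in D-KO against WT by 0.90 ± 0.15 (1.87-fold, adjusted p = 0.000619) and in E2-KO by 0.48 ± 0.15 (1.40-fold, adjusted p = 0.0207), and did not pass in E1-KO (0.12 ± 0.15, adjusted p = 0.546). Set against WT replicate 2 alone, the values were 0.70 in D-KO, 0.29 in E2-KO and -0.06 in E1-KO, and both calls remained. The D-KO call held in all 12 fits that left out 1 library (0.71 to 1.01), whereas that in E2-KO was lost without E2-KO replicate 3 (0.42) and when trends with GC content and length were removed (0.24).

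The comparison with WT asks how the readouts of the pathway stood in cells lacking an enhancer. A gene was called at an edgeR adjusted p below 0.05. In E1-KO 4 of the 10 genes were called, 2 higher (Etv5, Fos) and 2 lower (Egr1, Dusp6), beside 34.2% of all genes tested (15.7% higher and 18.5% lower). In E2-KO 2 were called, both higher (Etv5, Myc), beside 35.3% (16.7% higher and 18.6% lower), and in D-KO 2, both higher (Myc, Spry4), beside 22.8% (10.6% higher and 12.2% lower). The members' counts are thus close to or below the shares of all genes, and the 3 comparisons share the WT libraries. Libraries of the KO genotype and WT did not overlap for 4, 3 and 2 genes in E1-KO, E2-KO and D-KO, beside 41.1%, 41.0% and 32.8% of all genes. The median log2 fold change of the 10 genes was 0.08, 0.12 and 0.19, beside -0.01, 0.00 and -0.02 over all genes, and the median size of change was 0.30, 0.27 and 0.23, beside 0.41, 0.41 and 0.33. Without WT replicates 1 and 3, 5, 5 and 4 genes were called (30.8%, 30.1% and 34.8% of all genes), and with GC and length trends removed 5, 5 and 3 (32.5%, 31.0% and 26.4%). Fits of the 6 libraries of each pair alone average the scatter of WT with that of 3 KO libraries instead of 9. There 1, 0 and 1 were called (15.9%, 16.0% and 9.09% of all genes), Etv5 in E1-KO and Myc in D-KO.

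**Figure D2:**
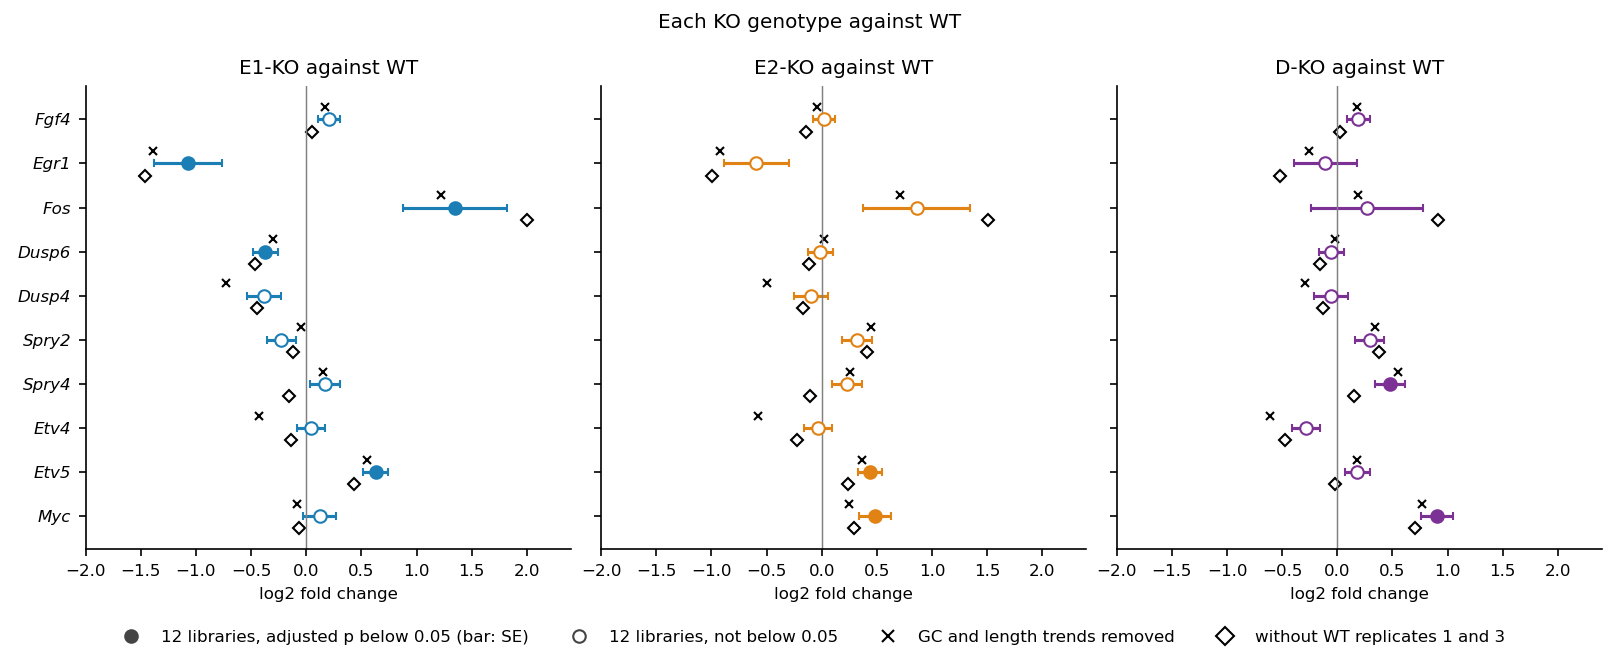
Log2 fold change of each gene in each KO genotype against WT (horizontal axis); circles with SE bars are the fit of 12 libraries, filled where the adjusted p is below 0.05, crosses the fit with GC and length trends removed, and diamonds the fit without WT replicates 1 and 3. Etv5 in E1-KO and Myc in D-KO lie to the right of 0 in all fits, and Egr1 in E1-KO to the left, while Etv4 shifts to the left with the trends removed.

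Between the KO genotypes, whose replicates lay close together, Myc, Dusp6, Dusp4, Spry2 and Spry4 stood higher in D-KO than in E1-KO. Etv4 and Etv5 stood lower there. In the fit of 12 libraries 4 genes were called in D-KO against E1-KO, beside 15.9% of all genes (8.43% higher and 7.52% lower). Myc was higher by 0.78 ± 0.15 (adjusted p = 0.00320), Egr1 by 0.96 ± 0.31 (adjusted p = 0.0472) and Spry2 by 0.52 ± 0.13 (adjusted p = 0.0199), and Etv5 lower by a log2 fold change of -0.45 ± 0.11 (adjusted p = 0.0149). Of these only Myc was called in all 12 fits that left out 1 library (0.75 to 0.82). With GC and length trends removed Spry2 lost its call (0.39) and Dusp6 gained one (0.29). The D-KO libraries also stood apart from those of E1-KO and E2-KO in their trend with GC content (Spearman correlation of -0.10 to -0.02 against 0.25 to 0.43) and in the share of mitochondrial counts (2.53% to 2.69% against 1.36% to 1.81%). Of 12 primitive endoderm markers 9 were higher in D-KO than in E1-KO, and the part of these differences in those of the 10 genes was not tested. In D-KO against E2-KO and in E1-KO against E2-KO edgeR called 0 genes, beside 4.48% (1.84% higher and 2.64% lower) and 0.596% (0.322% higher and 0.274% lower) of all genes. At an unadjusted p below 0.05 the counts were 2 and 3, and DESeq2 called 0 and 1. The shares of all genes just given are for edgeR's adjusted p and are not a background for these counts. Libraries did not overlap for 9, 5 and 8 of the 10 genes in D-KO against E1-KO, D-KO against E2-KO and E1-KO against E2-KO, beside 54.4%, 45.8% and 34.7% of all genes.

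The median dispersion (squared biological variation) of all genes was 0.0928 over the WT libraries and 0.00616 over the KO libraries, so the 9 KO libraries were also fitted alone. In D-KO against E1-KO 9 genes were then called, 6 higher and 3 lower, beside 48.5% of all genes (23.5% higher and 25.0% lower). Myc (0.77 ± 0.06), Spry2 (0.50 ± 0.06), Spry4 (0.30 ± 0.05), Dusp4 (0.32 ± 0.11), Dusp6 (0.31 ± 0.04) and Egr1 (0.95 ± 0.31) were higher in D-KO. Etv5 (-0.46 ± 0.04), Etv4 (-0.33 ± 0.05) and Fos (-1.09 ± 0.48) were lower, and Fgf4 was not called (-0.03 ± 0.05, with a 95% interval of -0.12 to 0.07). Among the members, all 4 feedback inhibitor genes were thus higher, and both ETS factor genes lower, in D-KO than in E1-KO. Outside the members this did not hold throughout. Etv1, an Etv gene of the pathway lists described below, was called higher in D-KO in the same fit (0.41 ± 0.09). Of 13 other feedback inhibitor genes, 3 were called higher and 1 lower. The call of Fos was lost in 8 of 9 fits that left out 1 KO library, that of Dusp4 without E1-KO replicate 1 or D-KO replicate 1, and that of Egr1 without E1-KO replicate 3, while those of Myc, Spry2, Spry4, Dusp6, Etv4 and Etv5 held in all 9. With GC and length trends removed as well, Fos lost its call and Etv4 kept it at -0.20.

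In D-KO against E2-KO the 9 KO libraries gave 5 calls, beside 37.6% of all genes (18.8% higher and 18.8% lower). Myc (0.42 ± 0.06), Spry4 (0.25 ± 0.05) and Fgf4 (0.17 ± 0.05) were higher in D-KO, and Etv4 (-0.25 ± 0.05) and Etv5 (-0.25 ± 0.04) were lower. Fgf4 lost its call without D-KO replicate 1 (0.13), and Etv4 (-0.04) when GC and length trends were removed. Dusp6 (-0.04, interval -0.13 to 0.04), Dusp4 (0.04, interval -0.17 to 0.25) and Spry2 (-0.03, interval -0.14 to 0.09) were not called between these genotypes. In E1-KO against E2-KO there were also 5 calls, beside 21.3% of all genes (10.2% higher and 11.1% lower). Fgf4 (0.20 ± 0.05) and Etv5 (0.20 ± 0.04) were higher in E1-KO, and Spry2 (-0.53 ± 0.06), Dusp6 (-0.35 ± 0.04) and Myc (-0.35 ± 0.06) were lower, all in each of the 9 fits that left out 1 library. Of the genes whose promoter windows are printed above, Spry2 and Dusp6 had their lowest mean in E1-KO and share none of the motifs. Fos and Etv5 had their highest mean there and share the Sp1 box, which 35.7% of all windows hold and the other Etv5 window does not. The Fgf4 window, not printed, holds it too, with Fgf4 means of 176 and 175 CPM in E1-KO and D-KO. The printed windows were picked because E1-KO lay apart in those genes, and 5 of the 10 genes have a window. A link of motif and direction therefore cannot be drawn and was not tested.

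**Figure D3:**
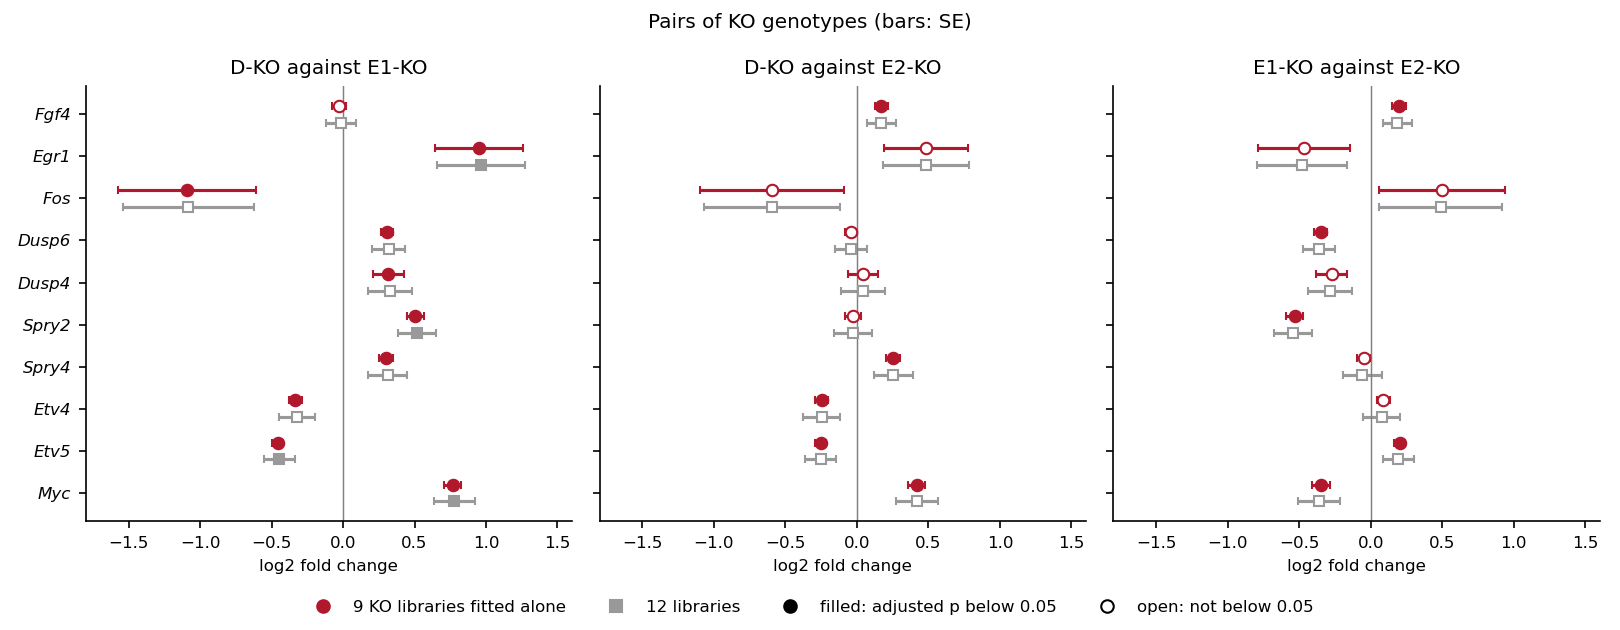
Log2 fold change of each gene between pairs of KO genotypes (horizontal axis, bars SE); red circles are the fit of the 9 KO libraries alone, grey squares that of 12 libraries, filled where the adjusted p is below 0.05. The values of both fits nearly coincide and the bars of the 9-library fit are shorter, except for Egr1 and Fos.

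With D-KO read as lacking both elements, the design also allows a test of whether the deletions together differ from the sum of each, as D-KO - E1-KO - E2-KO + WT on the log2 scale. In 3 of the 10 genes it passed, beside 35.2% of all genes (18.1% higher and 17.1% lower). Etv5 had -0.88 ± 0.15 (adjusted p = 0.000820), as it rose in E1-KO and E2-KO and did not pass in D-KO. Egr1 had 1.55 ± 0.43 (adjusted p = 0.0124), with its low level in E1-KO and a level in D-KO that overlapped WT. Fos had -1.94 ± 0.67 (adjusted p = 0.0344), a call that held in 4 of 12 fits that left out 1 library. With WT replicates 1 and 3 left out, 7 genes passed, beside 38.7% of all genes, with Etv5 at -0.69, Egr1 at 1.95, Fos at -2.60, Dusp6 at 0.42, Dusp4 at 0.49, Spry4 at 0.41 and Myc at 0.48. In the fit of 12 libraries Myc had 0.30 ± 0.21 (adjusted p = 0.271) and Dusp4 0.42 (adjusted p = 0.143). With GC and length trends removed both were called, at 0.61 (adjusted p = 0.0128) and 0.93 (adjusted p = 0.00461), and Fos was not (-1.75, adjusted p = 0.0592).

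Other genes of the pathway were read from lists of 79 symbols, of which 72 were tested. In E1-KO 15 were called higher and 14 lower, in E2-KO 19 and 17, and in D-KO 11 and 12, with medians of 0.02, 0.07 and 0.02. These calls were 40.3%, 50% and 31.9% of the tested list, beside 34.2%, 35.3% and 22.8% of all genes. With replicate 2 as the only WT library, the calls numbered 34, 29 and 33, against 29, 36 and 23 with all 3, beside 30.8%, 30.1% and 34.8% of all genes. Among 7 tested ligand genes besides Fgf4, Fgf3 rose in all 3 KO genotypes (0.930 CPM in WT and 2.83 to 2.88 CPM in the KO genotypes, log2 fold changes 1.56, 1.54 and 1.53, adjusted p = 0.0148, 0.0158 and 0.0231). Fgf5, a ligand of the primed epiblast, fell from 2.30 ± 1.41 CPM to 0.290 ± 0.170 and 0.230 ± 0.238 CPM in E1-KO and E2-KO (-2.96 ± 0.80 and -3.25 ± 0.87, adjusted p = 0.00712 and 0.00553), on 67, 9 and 7 counts. It had 1.46 ± 0.754 CPM in D-KO (-0.62 ± 0.58, adjusted p = 0.475). Fgf1, a ligand with no signal peptide, fell by 1.63 ± 0.30 and 1.46 ± 0.30 in E1-KO and E2-KO and had -0.63 ± 0.28 in D-KO (adjusted p = 0.00100, 0.00209 and 0.120). Set against WT replicate 2 alone, Fgf5 was at -2.20 and -2.50 in E1-KO and E2-KO, still called, and turned to 0.13 in D-KO. Fgf3 was then at 1.12, 1.10 and 1.08, not called in E2-KO, and Fgf1 at -1.89, -1.73 and -0.89, all called.

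Of 9 receptor and co-receptor genes, 4, 3 and 2 were called lower in E1-KO, E2-KO and D-KO and 0, 1 and 0 higher, beside 18.5%, 18.6% and 12.2% of all genes called lower and 15.7%, 16.7% and 10.6% called higher. Fgfr2, the receptor of primitive endoderm and trophoblast, went from 18.8 ± 0.532 CPM in WT to 4.86 ± 1.52 and 9.35 ± 1.37 CPM in E1-KO and E2-KO (-1.95 ± 0.21 and -1.0 ± 0.20, adjusted p = 1.26e-05 and 0.00180), with 13.6 ± 1.53 in D-KO (-0.47 ± 0.19, adjusted p = 0.0978). The transmembrane partner gene Flrt3 fell in all 3 KO genotypes, from 28.5 ± 8.58 CPM to 6.15 ± 1.22, 9.66 ± 0.884 and 11.0 ± 0.510 (-2.20, -1.56 and -1.36). The proteoglycan gene Gpc3 fell by 0.73, 0.64 and 0.54. Set against WT replicate 2 alone, Fgfr2 was at -1.96, -1.03 and -0.50 and Flrt3 at -1.70, -1.06 and -0.87, all called, and Gpc3 kept its call in E1-KO alone. The primitive endoderm markers, whose sums are given above, were lower in the same genotypes, with 10, 10 and 9 of 12 called, and their part was not tested.

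Within the cascade of 20 adaptor, Ras and kinase genes 6, 8 and 5 were called lower and 2, 2 and 1 higher, beside the same shares of all genes. The adaptor gene Shc1 rose from 103 ± 26.0 CPM to 226 ± 2.32, 228 ± 14.1 and 143 ± 4.99 CPM in E1-KO, E2-KO and D-KO (1.13, 1.14 and 0.47). Shc1 lost its call in D-KO (0.14) without WT replicates 1 and 3.

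Among 13 tested feedback inhibitor genes besides the Dusp and Sprouty genes above, 2, 3 and 2 were called higher and 2, 3 and 4 lower, beside the shares of all genes given for the receptors. Dusp1, an immediate-early phosphatase gene, rose from 16.2 ± 4.42 CPM to 35.3 ± 3.08, 35.6 ± 3.03 and 33.6 ± 2.77 CPM (1.12, 1.13 and 1.04, adjusted p = 0.000221, 0.000231 and 0.000592). Spred2, a relative of the Sprouty genes, rose by 0.42, 0.40 and 0.58, and Rasa1, which encodes a Ras GTPase-activating protein, fell by 0.69, 0.62 and 0.43. Without WT replicates 1 and 3 these were 0.75, 0.75 and 0.67 for Dusp1, 0.31, 0.28 and 0.46 for Spred2, and -0.32, -0.26 and -0.07 for Rasa1, which lost its call in D-KO.

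Besides Sox2 and Pou5f1, the list of other ERK-induced genes was the one called in a single direction in all 3 comparisons with WT. Of 15 tested genes 6, 9 and 5 rose in E1-KO, E2-KO and D-KO and 0 fell, beside the 15.7%, 16.7% and 10.6% of all genes called higher, and their median log2 fold changes were 0.60, 0.69 and 0.61. Phlda1 rose from 33.4 ± 9.74 CPM to 70.9 ± 5.16, 90.8 ± 7.48 and 67.7 ± 1.84 CPM (1.08, 1.44 and 1.01, adjusted p = 0.000248, 2.60e-05 and 0.000628). Ier2, an immediate-early gene, rose from 66.4 ± 33.7 CPM to 143 ± 4.75, 157 ± 7.69 and 118 ± 3.98 CPM (1.10, 1.24 and 0.83). Egr4, a relative of Egr1, had 2 counts in the 3 WT libraries together, too few for a fold change here, and 115, 123 and 148 counts in the KO genotypes, at 3.69 ± 0.215, 4.18 ± 0.534 and 4.93 ± 0.664 CPM. With WT replicates 1 and 3 left out, the list held 5, 5 and 6 rises among 16 genes and 0, 0 and 2 falls, with medians of 0.19, 0.23 and 0.13. Phlda1 then stood at 0.74, 1.09 and 0.66, all called, and Ier2 at 0.47, 0.60 and 0.18. Egr1 and Dusp6 in E1-KO thus differed from WT in the direction opposite to the called genes of this list.

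The list of 6 genes for SRF and its partners, through which ERK reaches immediate-early genes, held 2, 1 and 1 called higher and 0, 1 and 1 lower, beside those same shares. Srf itself rose from 32.3 ± 9.21 CPM to 56.0 ± 1.85, 51.1 ± 2.37 and 50.3 ± 2.43 CPM (0.79, 0.66 and 0.63, adjusted p = 0.00186, 0.00610 and 0.0107). Elk3, whose product represses SRF targets until ERK phosphorylates it, fell in D-KO, to 1.89 ± 0.318 CPM from 6.58 ± 1.19 in WT (-1.79 ± 0.23, adjusted p = 0.000102), and had 7.39 ± 0.955 and 6.63 ± 0.672 CPM in E1-KO and E2-KO (0.17 and 0.01, adjusted p = 0.540 and 0.971). Mkl2, an actin-regulated SRF partner, fell in E2-KO by 0.76 ± 0.19 (adjusted p = 0.00879). With replicate 2 as the only WT library, Elk3 was at -1.82 in D-KO, Srf at 0.42, 0.28 and 0.26 and Mkl2 in E2-KO at -0.32, all called.

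**Figure D4:**
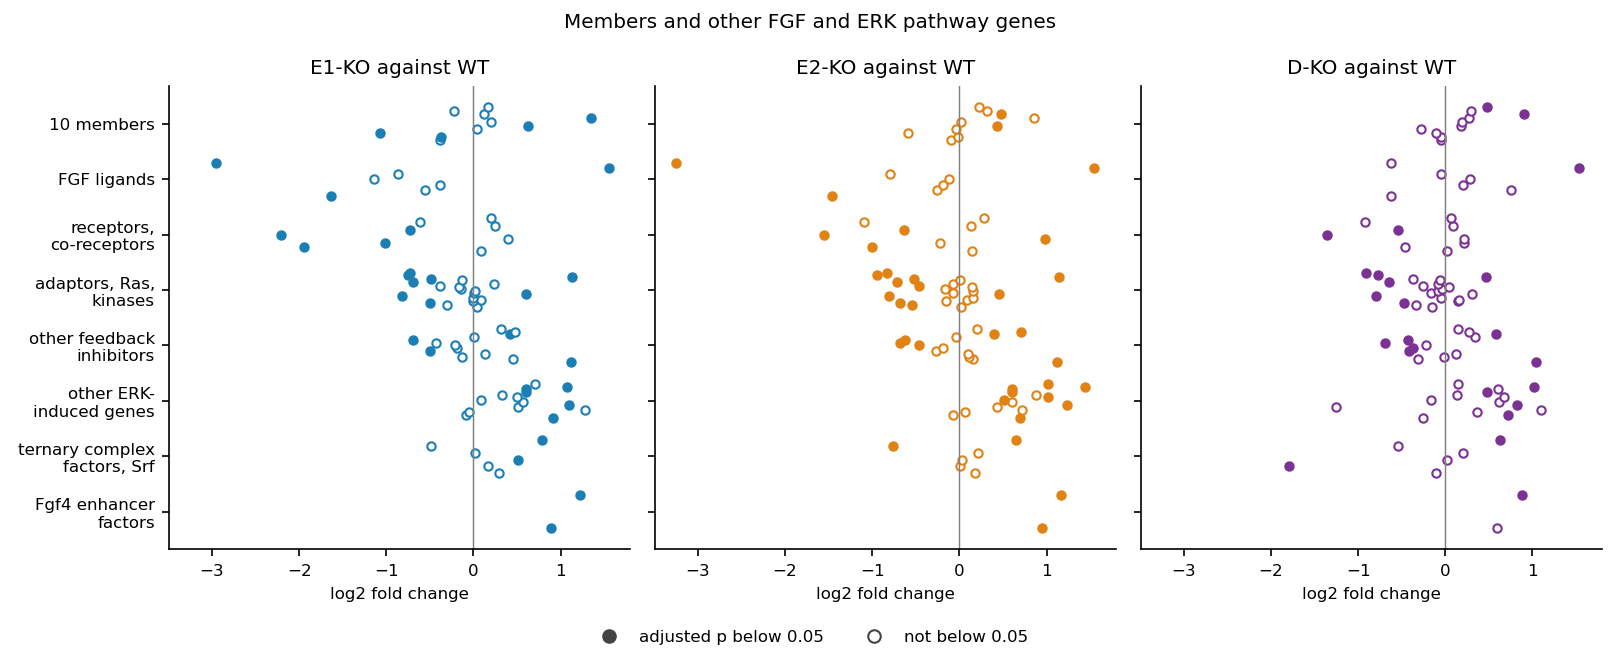
Log2 fold change against WT (horizontal axis, the same scale in each panel) of the 10 genes and of the other tested pathway genes by list, 1 point a gene, filled where the adjusted p is below 0.05; Egr4, with 2 counts in WT, is left out. In the row of other ERK-induced genes every filled point lies to the right of 0, whereas the 10 genes have filled points on both sides in E1-KO.

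As a description over the 12 libraries, the genes whose log2 CPM followed each of the 10 most closely were taken from 9804 compared genes. The libraries of a genotype lie together, so these values mostly reflect the 4 genotypes and the scatter of WT. Etv5 was followed most closely by Sh3bp1 (Pearson r = 0.99) and D17Wsu92e (0.98), Myc by Platr17 (0.97) and Gfm1 (0.96), and Spry2 by Alg8 (0.96) and Eif3f (0.94). For Spry4 they were Ppp5c and Prmt1 (0.95 each), for Etv4 Mcm5 (0.95) and Cyb561a3 (0.94), and for Dusp6 Ccnb1ip1 and Cisd3 (0.93 each). For Fgf4 they were Arhgef7 (0.91) and Txnrd1 (0.90), for Egr1 Wasf1 (0.92) and Sfrp5 (0.90), for Fos Xylb (0.92) and Fam169b (0.91), and for Dusp4 Rpn1 (0.91) and Surf4 (0.89).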

How the data were processed

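The 12 RNA-seq libraries were deposited as tables of raw read counts per gene symbol, made by the authors with HISAT2 2.1.0 and HTSeq 0.9.1 on mm10, per the submitters' processing notes, which also name DESeq2 1.18.1. For the counting, annotation and strand setting were not given in the sources used here. Without strand a gene and its antisense partner cannot be told apart. In GENCODE M21 no exon of another gene overlaps the exons of the 10 genes. Gm27369 and Gm27804, on the opposite strand, overlap Spry4 outside its exons. The 4C and ChIP samples were not analysed here. Tables were joined by symbol, and genes with enough counts by edgeR's filterByExpr (minimum count 10) were kept, 16765 in all. TMM scaling and the quasi-likelihood test of edgeR 4.0.16 (R 4.3.3, limma 3.58.1) were run on 12 libraries with 1 mean per genotype, and p-values were adjusted by Benjamini-Hochberg over all genes tested. Intervals are at 95%. The edgeR fit was tested on simulated counts with the same dispersion, 0.0265, in every library. That simulation does not cover the unequal spread of the WT and KO libraries.

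Alternatives were DESeq2 1.42.0, other scalings, no filter, limma voom with a variance factor per genotype, and the replicate number as a block. Others were trends with GC content and transcript length removed, fewer libraries, and each library left out in turn. GC content and length, called gene length above, are those of the longest transcript and were known for 97.1% of tested genes. The 10 members and the pathway and marker lists were chosen with earlier results of these data known. The text names all 10 members and, of each pathway list, the 3 genes with the smallest adjusted p in any comparison with WT among those called in at least 1. For each member it also names the 2 other genes, predicted loci left out, with the highest Pearson correlation of log2 CPM (prior count 2) and an average of at least 3. Depth was 9101547 to 13007735 counts a library, so the scarcest member, Fos, rests on 4 to 19 counts. Single values of some genes of the pathway lists are not reported here.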

Additional observations from a re-analysis of the deposited data

Results flagged for a closer look

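Egr1 differed between genotypes in the effect of the deletions: on the log2 scale D-KO minus both single deletions plus WT was 1.55 ± 0.43 (SE, edgeR's quasi-likelihood test, adjusted p = 0.0124), and the direction and call held in all 12 fits that left out 1 library (1.26 to 1.71). The same test gave -0.88 ± 0.15 for Etv5 (adjusted p = 0.000820), which also held in all 12 (-1.0 to -0.79). Fos had -1.94 ± 0.67 (adjusted p = 0.0344) on 4 to 19 counts a library, and its call held in 4 of 12 such fits (-2.43 to -1.65).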

How the results depend on the processing

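Fits of the 6 libraries of each pair alone called 1, 0 and 1 of the 10 genes in E1-KO, E2-KO and D-KO against WT and 17, 18 and 8 of the other pathway genes, against 4, 2 and 2 and 29, 36 and 23 in the fit of 12 libraries. Without WT replicates 1 and 3, E2-KO had 5 and D-KO 4 calls against WT, D-KO 8 against E1-KO and 5 against E2-KO, E1-KO 5 against E2-KO, and the interaction 7. Removing GC and length trends gave 5 calls in E2-KO against WT and 1 in D-KO against E2-KO. Limma voom gave 2 in E1-KO against WT, and 9, 5 and 5 in D-KO against E1-KO, D-KO against E2-KO and E1-KO against E2-KO. For those 3 comparisons the 9 KO libraries alone gave 9, 5 and 5, beside 48.5%, 37.6% and 21.3% of all genes. In settings chosen after seeing the data, these libraries gave 8, 4 and 6 with GC and length trends removed, 9, 5 and 5 with voom, and 8, 5 and 5 with DESeq2. Counts in this paragraph with no share of all genes beside them show only how calls moved with the setting. They are not a result about the listed genes. DESeq2 and the fit with no filter each gave 1 call in E1-KO against E2-KO, and scaling by library totals 1 in D-KO against WT. Same-numbered libraries did not deviate together (18 pairs, r from -0.0776 to 0.0823). No pairing by replicate number was thus seen, though deviations from means of 3 libraries could miss it. With the replicate block alone the counts were 4, 2 and 2 against WT, 3, 0 and 0 between KO genotypes and 3 for the interaction. With the block and GC and length trends removed they were 5 in E2-KO and 4 in D-KO against WT and 1 in D-KO against E2-KO, and 23 pathway genes in E2-KO. Leaving out 1 library gave 1 to 4, 1 to 3 and 1 to 4 calls against WT, 1 to 7, 0 to 3 and 0 to 3 between KO genotypes (7 to 9, 4 to 5 and 5 to 6 in the 9 KO libraries), 2 to 5 for the interaction, and 23 to 46, 27 to 45 and 15 to 37 pathway genes. Scaling by library totals moved the median log2 fold change of all genes from -0.01 to -0.18 in the interaction and to -0.11 in D-KO against E1-KO.

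Differences that turned sign were not called in the fit of 12 libraries. Without WT replicates 1 and 3 they were Spry4 in E1-KO (-0.15) and E2-KO (-0.11), Etv4 (-0.14) and Myc (-0.063) in E1-KO, Fgf4 in E2-KO (-0.14), Etv5 in D-KO (-0.021) and the interaction of Fgf4 (0.12). With GC and length trends removed they were, against WT, Etv4 (-0.43; with the block too -0.42) and Myc (-0.081; -0.074) in E1-KO and Fgf4 (-0.040; -0.038) and Dusp6 (0.021; 0.026) in E2-KO. Under the same settings Fgf4 turned in D-KO against E1-KO (0.011; 0.012), as did the interactions of Fgf4 (0.052; 0.050), Spry2 (-0.050; -0.072) and Etv4 (0.40; 0.39). Scaling by library totals turned Dusp6 (0.055) and Etv4 (0.041) in E2-KO, Dusp4 in D-KO against E2-KO (-0.021) and the interaction of Spry4 (-0.071). RLE size factors turned Fgf4 in E2-KO (-0.000634), and no filter Dusp6 in E2-KO (0.00909). Leaving out 1 library turned, against WT, Etv4 (-0.11 to 0.15) and Myc (-0.059 to 0.23) in E1-KO. In E2-KO it turned Fgf4 (-0.044 to 0.11), Dusp6 (-0.14 to 0.064), Dusp4 (-0.25 to 0.021) and Etv4 (-0.19 to 0.075), and in D-KO Egr1 (-0.28 to 0.18), Fos (-0.19 to 0.75), Dusp6 (-0.19 to 0.019) and Dusp4 (-0.21 to 0.061). It also turned Fgf4 in D-KO against E1-KO (-0.057 to 0.037, and -0.068 to 0.022 in the 9 KO libraries, with 0.00356 without E1-KO replicate 2), Spry2 in D-KO against E2-KO (-0.098 to 0.016, and -0.10 to 0.017 in the 9 KO libraries, with 0.00306 without D-KO replicate 2) and the interactions of Fgf4 (-0.13 to 0.017) and Spry4 (-0.12 to 0.22). The cause was not tested. Depth limits Fos most, with 4 to 19 counts a library and SEs of 0.47 to 0.51 in its differences from WT.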
